A study of Mus musculus with 6 samples.

Results

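Integrin and laminin genes were described in libraries from the mouse modiolus, the conical bone at the centre of the cochlea, where the spiral ganglion neurons (SGNs) and the first stretch of the auditory nerve lie. All protein-coding mouse genes whose symbols begin with Itga or Itgb, or with Lama, Lamb or Lamc and a digit, were taken, which gave 42 genes among the 22028 protein-coding genes of the annotation. Of these, 31 carry an integrin name and 11 encode laminin chains. The integrin names include 5 related genes that encode no integrin subunit, namely Itgbl1, Itgb2l, Itgb3bp, Itgb1bp1 and Itgb1bp2. The deposited table listed at least 1 transcript of 39 of the 42 genes and 104 of their 224 annotated transcripts, and 34 of the genes passed the filter on low counts, among 14118 genes tested in all.

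The 6 libraries came from C57BL/6 mice. The 3 control libraries came from mice given saline, and the 3 degenerated libraries from mice in which SGN degeneration followed the loss of hair cells. The methods of the study place the degenerated group on day 30 after 1 g/kg kanamycin sulfate, an aminoglycoside that is toxic to hair cells, and 0.4 g/kg furosemide, a loop diuretic, in male mice 8 weeks of age. The sources used here do not say whether a library came from 1 animal or from a pool, so that p-values measure the spread between libraries only, which may be technical.

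The control libraries held 14418480 to 15549319 counts of listed transcripts and the degenerated libraries 12480876 to 14841769. The labels name the cell type as SGN. The neuronal markers Tubb3 and Nefh were present in every library, but so were Mbp, a protein of myelin, and the epithelial gene Epcam, so the samples are read here as the whole tissue of the modiolus. Summed markers of SGNs (14 of 15 listed) were 12253 to 15692 CPM (counts scaled to a common library size) in control and 7188 to 10719 CPM in degenerated libraries. Summed hair cell markers (11 of 12 listed) were 770.2 to 1086 and 542.5 to 624.0 CPM, with Ocm, the calcium buffer of outer hair cells, at 139.6 to 172.9 CPM in control against 0.790 to 3.90 CPM in degenerated libraries. Summed markers of supporting and epithelial cells (10 of 12 listed) were 1738 to 1966 and 2167 to 2665 CPM, and those of Schwann cells and satellite glia (11 of 13 listed) 5603 to 9830 and 4918 to 7754 CPM. In such bulk samples, fewer cells of a type and less RNA per cell cannot be told apart, and the part of these shifts in the results was not tested.

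Integrins are cell surface receptors made of an alpha and a beta chain, which together decide the ligand. They bind matrix proteins such as laminin, collagen and fibronectin, or counter-receptors on other cells, and link them to the actin cytoskeleton. Laminins are cross-shaped trimers of an alpha, a beta and a gamma chain and form the base layer of basement membranes. In the inner ear, laminin-rich basement membranes lie around Schwann cells, under the sensory epithelium and around vessels, and integrins that carry the beta1 chain are known for their role in the myelination of peripheral axons.

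In the counts of their listed transcripts, Itgb1, Itga7, Lama5 and Itga8 were called higher in degenerated libraries, and no integrin or laminin gene was called lower. For Itgb1 these counts came almost wholly from a single transcript that is not its main coding one. A gene was called when its unadjusted p in edgeR's quasi-likelihood test was under 0.01 and its absolute log2 fold change was above 0.2. The study states these criteria for its comparison of double knockout with wild-type mice, and gives none for this comparison. These 4 of 34 calls stand against 2.01% of all tested genes called higher, while 0.715% were called lower and 2.73% were called in either direction. P-values were also adjusted over the whole table by the Benjamini-Hochberg method. At an adjusted p under 0.05, edgeR and limma-voom each gave 0 of the 34 genes and 0 of all 14118 genes tested. DESeq2 gave 2 of the 34, Itgb1 and Itga7 (2.71% of all tested genes). At an unadjusted edgeR p under 0.05 there were 8 of the 34 (9.68% of all tested genes). By the unadjusted criteria, DESeq2 called 4 of the 34 (5.56% of all tested genes) and limma-voom 3 (2.81%), all higher. With 1 library left out, edgeR called 2 to 4 of the 34, and only Itgb1 and Itga7 without control replicate 3, degenerated replicate 2 or degenerated replicate 3. Of the 34 genes, 22 had a positive and 12 a negative log2 fold change, with a median of 0.32, against a median of -0.003 and a share of 49.7% positive among all genes tested. In 10 genes all degenerated libraries lay above all control libraries (10.3% of all tested genes), and in 1 gene all lay below (7.37% of all tested genes). The summed epithelial markers were apart between the groups in the same direction, and their part in these calls was not tested. The median was 0.44 for the 10 laminin genes tested and 0.13 for the 24 integrin genes tested.

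**Figure D1:**
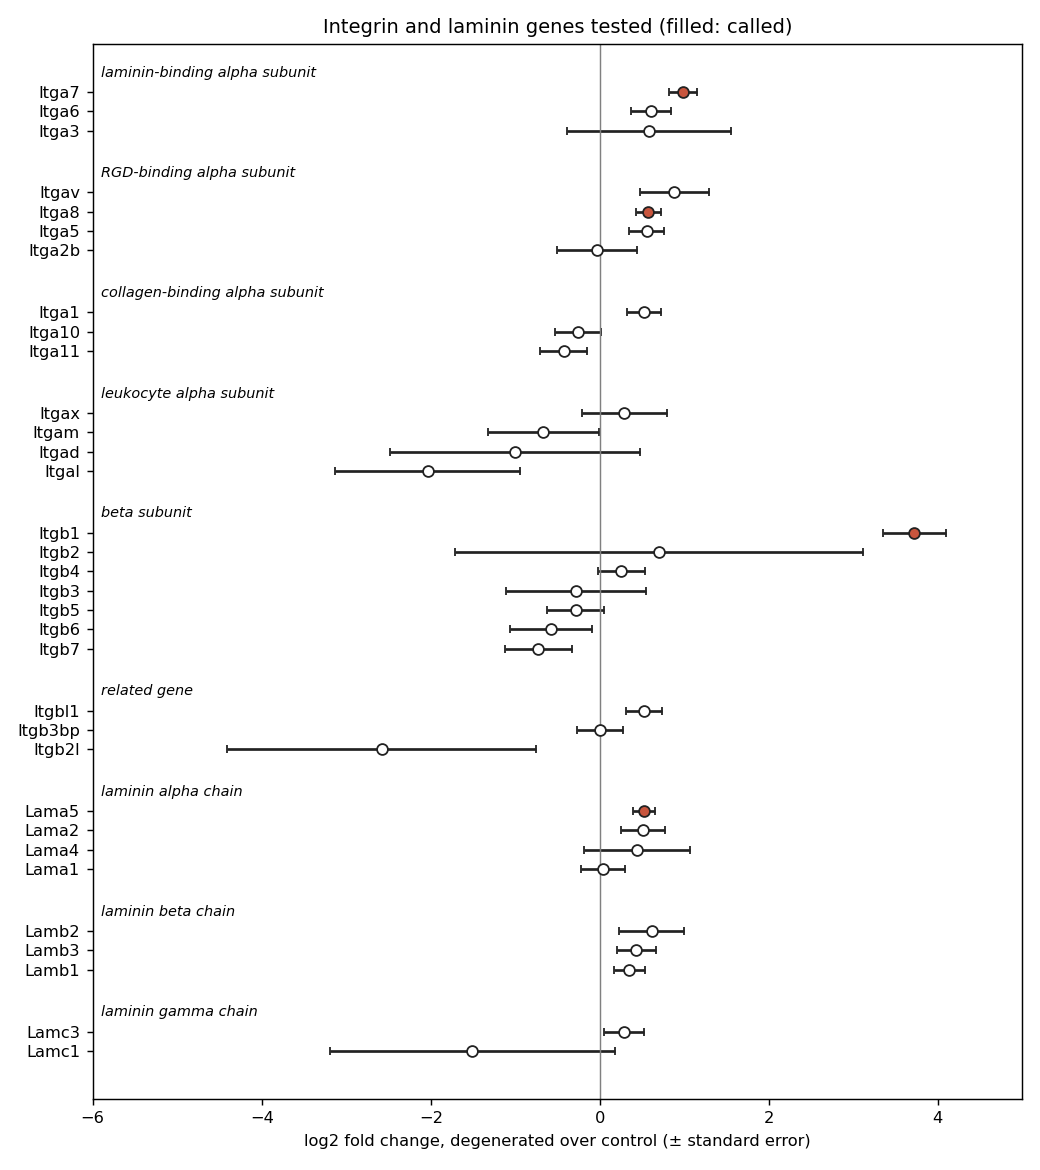
Log2 fold change (x axis, degenerated over control, with its standard error) of integrin and laminin genes tested, grouped by role, with filled points for called genes. Itgb1 lies farthest to the right at 3.72, and the gene farthest to the left, Itgb2l at -2.58, has a standard error of 1.83 and was at -0.45 with limma-voom.

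Itgb1 encodes the beta1 chain, the common partner of most laminin-, collagen- and fibronectin-binding alpha chains. The gene (ENSMUSG00000025809) lies on the plus strand of chromosome 8, at chr8:128685654-128733200 in GRCm38. It stood at 4.63, 4.17 and 4.21 CPM in the control libraries and at 51.1, 84.8 and 35.8 CPM in the degenerated libraries. All 3 degenerated libraries lay far above the narrow range of the controls, and they differed among themselves by more than the controls did. Counts of the listed Itgb1 transcripts rose 13.2-fold, from a mean of 4.34 ± 0.255 to one of 57.2 ± 25.1 CPM (SD, n = 3 in each group). The log2 fold change was 3.72 (standard error 0.37, edgeR adjusted p = 0.0779, DESeq2 adjusted p = 1.91e-17).

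These counts came almost wholly from a single transcript that is not the main coding transcript of Itgb1. Of the 4 annotated transcripts, the table listed Itgb1-202 and Itgb1-204. The principal coding transcript, Itgb1-201, with 16 exons and 3815 bases, and Itgb1-203 were not analysed here. Itgb1-202 (ENSMUST00000124826), with 15 exons and 2906 bases, is annotated as a target of nonsense-mediated decay, the pathway that degrades mRNAs with an early stop codon. It differs from Itgb1-201 by shorter outer exons and by the absence of exon 4, which lies at chr8:128710253-128710475 and is 223 bases long, a length that leaves a remainder of 1 on division by 3. All 2906 bases of Itgb1-202 also lie in exons of Itgb1-201, and only 1 of its 14 exon junctions, the one over the missing exon, is not shared with it. The sequences around that exon, from the GENCODE M21 transcripts on the plus strand, show where the transcripts part. Capitals mark exon 4 in Itgb1-201 and, in Itgb1-202, the stop codon at chr8:128713229-128713231 that the annotation places shortly after the new junction.
Itgb1-201: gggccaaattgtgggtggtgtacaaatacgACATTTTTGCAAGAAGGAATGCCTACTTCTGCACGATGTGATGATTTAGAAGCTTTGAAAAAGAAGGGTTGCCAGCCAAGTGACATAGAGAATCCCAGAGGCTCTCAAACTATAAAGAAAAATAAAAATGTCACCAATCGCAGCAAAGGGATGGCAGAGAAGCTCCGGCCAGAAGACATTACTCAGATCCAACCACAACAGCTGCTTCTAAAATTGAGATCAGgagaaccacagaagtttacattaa
Itgb1-202: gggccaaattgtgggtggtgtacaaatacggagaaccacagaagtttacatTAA

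Itgb1-202 held 68, 57 and 64 counts in the control libraries and 746, 1200 and 452 counts in the degenerated libraries. In the fit across 26065 transcripts it rose from 4.31 ± 0.294 to 56.6 ± 24.3 CPM, at a log2 fold change of 3.71 (standard error 0.39, edgeR adjusted p = 0.112). The rise did not rest on a single library, since the log2 fold change lay between 3.33 and 3.95 with each library left out in turn. Itgb1-204, a coding fragment of 711 bases from the end of the gene, held 2, 2 and 2 counts in control and 1, 4 and 1 counts in degenerated libraries and was too low to be tested. Itgb1-202 therefore took 96.9 ± 0.272% of the listed Itgb1 counts in control and 99.8 ± 0.0994% in degenerated libraries. The difference was 2.86 percentage points, with an exact permutation p of 0.1, the smallest that 3 libraries against 3 can give. Since Itgb1-204 held 1 to 4 counts throughout, this share follows the counts of Itgb1-202 and is no separate result. Reads over the 13 junctions that both transcripts have cannot by themselves tell Itgb1-202 from Itgb1-201, so the values describe the counts assigned to Itgb1-202 and not the level of all Itgb1 mRNA.

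**Figure D2:**
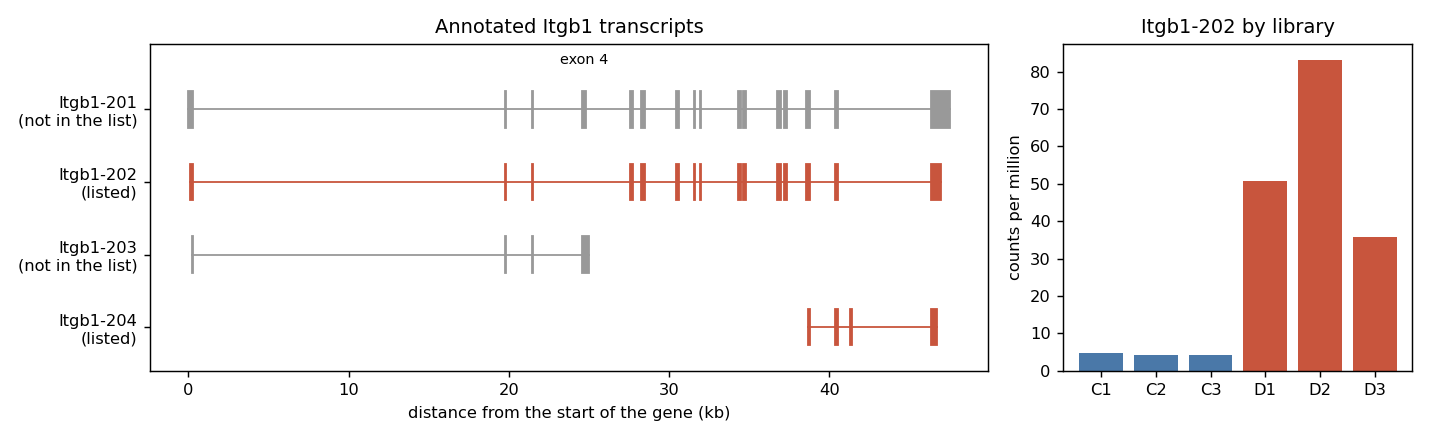
Left, exons (boxes, to scale) of the 4 annotated Itgb1 transcripts by distance from the start of the gene in kb, with listed transcripts in red and the others in grey. Right, CPM of Itgb1-202 in each control (C1 to C3, blue) and degenerated (D1 to D3, red) library, at 4.12 to 4.64 CPM in control against 35.7 to 83.2 CPM in degenerated libraries.

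The laminin-binding alpha chains were Itga7, Itga6 and Itga3. All 3 had positive log2 fold changes (49.7% of all tested genes), and 1 was called, higher (2.01% of all tested genes). Itga7 encodes the alpha7 chain, which pairs with beta1 as a laminin receptor known best from muscle. The gene (ENSMUSG00000025348) lies at chr10:128933818-128958282 on the plus strand. It stood at 38.5, 38.4 and 30.6 CPM in control and at 63.4, 71.1 and 77.3 CPM in degenerated libraries, so that the groups did not overlap. The mean rose from 35.8 ± 4.55 to 70.6 ± 6.98 CPM, at a log2 fold change of 0.98 (standard error 0.17, edgeR adjusted p = 0.238, DESeq2 adjusted p = 0.000216). The call was kept with each library left out in turn, at log2 fold changes from 0.87 to 1.04. Summed skeletal muscle markers (12 of 12 listed, 4 tested) were 748.0 to 1386 CPM in control against 335.7 to 533.8 CPM in degenerated libraries, a sum that includes Pvalb, which SGNs also express. Of the defining muscle markers, Acta1 was at 54.7 and Myh1 at 62.4 CPM in control replicate 3 and both were at 0 to 1.32 CPM in the other libraries, while Myh2 had 0 counts throughout. The part of muscle RNA in the Itga7 values was not tested.

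Of the listed Itga7 transcripts, Itga7-201 and Itga7-202 are both coding transcripts of 25 exons and differ mainly in which of a pair of alternative exons they hold as exon 5. In the protein, this stretch lies in the extracellular part, in the region known to bear on ligand binding. Itga7-201 holds the exon at chr10:128941822-128941941 (120 bases) and Itga7-202 the one at chr10:128941445-128941576 (132 bases), so that reads within them separate the transcripts. Capitals mark the alternative exon and lower case the shared bases on both sides.
Itga7-201: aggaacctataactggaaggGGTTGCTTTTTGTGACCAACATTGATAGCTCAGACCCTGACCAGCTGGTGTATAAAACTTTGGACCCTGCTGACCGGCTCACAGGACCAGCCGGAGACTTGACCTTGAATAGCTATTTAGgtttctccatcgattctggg
Itga7-202: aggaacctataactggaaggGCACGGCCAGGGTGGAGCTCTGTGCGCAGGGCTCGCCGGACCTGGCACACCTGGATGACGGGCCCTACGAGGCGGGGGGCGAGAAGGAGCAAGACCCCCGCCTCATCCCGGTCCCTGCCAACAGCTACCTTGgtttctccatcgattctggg

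By assigned counts, Itga7-202 carried the rise of the gene, with 352, 266 and 380 counts in control and 813, 803 and 648 in degenerated libraries. Its log2 fold change was 1.26 (standard error 0.20, edgeR adjusted p = 0.283), from 22.6 ± 2.95 to 54.1 ± 2.54 CPM. Itga7-201 held 218, 262 and 80 counts in control and 76, 154 and 298 counts in degenerated libraries, at a log2 fold change of 0.01 (standard error 0.72, edgeR adjusted p = 0.999). The groups of Itga7-201 overlapped fully. The share of Itga7-202 was 63.0 ± 15.3% of the gene's counts in control and 77.8 ± 10.9% in degenerated libraries (exact permutation p = 0.2). A change in the balance of the transcripts was thus not shown. Of the 4020 bases of Itga7-202, 3888 also lie in Itga7-201, and 22 of its 24 junctions are shared. Reads there cannot by themselves separate these transcripts, so the values describe the counts assigned to each. Itga7-205, a transcript with a retained intron, held 11, 15 and 19 against 38, 53 and 34 counts (log2 fold change 1.54, standard error 0.37, edgeR adjusted p = 0.527), and its call was lost with any library left out. Exons of Itga7 share 9 of 8092 bases with Mettl7b on the other strand.

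Itga6, whose product pairs with beta1 or beta4 and binds laminin in epithelia and Schwann cells, had 125.9, 90.6 and 68.1 CPM in control and 129.4, 151.2 and 153.9 CPM in degenerated libraries. The groups were apart by a narrow margin only, since control replicate 1 lay close to degenerated replicate 1. The log2 fold change was 0.61 (standard error 0.24, edgeR adjusted p = 0.493), below the criteria, and it became 0.86 and met them without control replicate 1 (adjusted p = 0.254). Itga3, of which 2 of 6 transcripts and not the principal one were listed, ranged from 0.637 to 14.2 CPM in control and from 7.61 to 15.3 CPM in degenerated libraries (log2 fold change 0.58, standard error 0.97, adjusted p = 0.875). This value was 1.34 with limma-voom, and it went from 0.045 with control replicate 2 left out to 1.70 with control replicate 3 left out.

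The alpha chains that recognise the RGD motif of fibronectin and related proteins were Itga8, Itga5, Itgav and Itga2b. Of these 4, 1 was called, higher (2.01% of all tested genes). Itga8 encodes a receptor chain for nephronectin and fibronectin that is known in the hair cell epithelium of the inner ear and in the kidney. The gene (ENSMUSG00000026768) lies at chr2:12106632-12301922 on the minus strand. It stood at 123.1, 114.8 and 107.8 CPM in control and at 142.7, 199.3 and 172.8 CPM in degenerated libraries, again without overlap. The mean rose from 115.3 ± 7.65 to 171.6 ± 28.3 CPM, at a log2 fold change of 0.57 (standard error 0.15, edgeR adjusted p = 0.359). This call was at the edge of the criteria: it was lost with RLE normalization and with limma-voom, and with 1 library left out it was kept only without degenerated replicate 1, at log2 fold changes from 0.45 to 0.68. Nearly all counts came from its principal transcript Itga8-201, at 1859, 1622 and 1689 against 2083, 2828 and 2189 counts (log2 fold change 0.53, adjusted p = 0.592 in the fit across transcripts). Itga8-204 held 1 to 3 counts in every library and Itga8-207 none. The gene shares 372 of 7368 exon bases with an antisense gene, E030013I19Rik, and the sources used here do not say whether the counting used strand.

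Itga5, the alpha chain of the classical fibronectin receptor, stood at 29.5, 42.1 and 45.4 CPM in control and at 62.3, 52.5 and 56.7 CPM in degenerated libraries. The groups did not overlap, but the log2 fold change of 0.55 (standard error 0.21) did not meet the criteria (edgeR adjusted p = 0.480). Itgav, the shared alpha chain of several vitronectin receptors, was low in its listed part, 3 of 9 transcripts, with 3.24, 1.41 and 2.04 CPM in control and 4.99, 3.66 and 3.71 CPM in degenerated libraries. Its log2 fold change was 0.88 (standard error 0.41, adjusted p = 0.562). Itga2b, the alpha chain of the platelet fibrinogen receptor, ranged from 1.13 to 3.64 CPM and had a log2 fold change of -0.03 (adjusted p = 0.986). The listed transcripts of Itgav and of Itga2b do not include the principal ones.

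**Figure D3:**
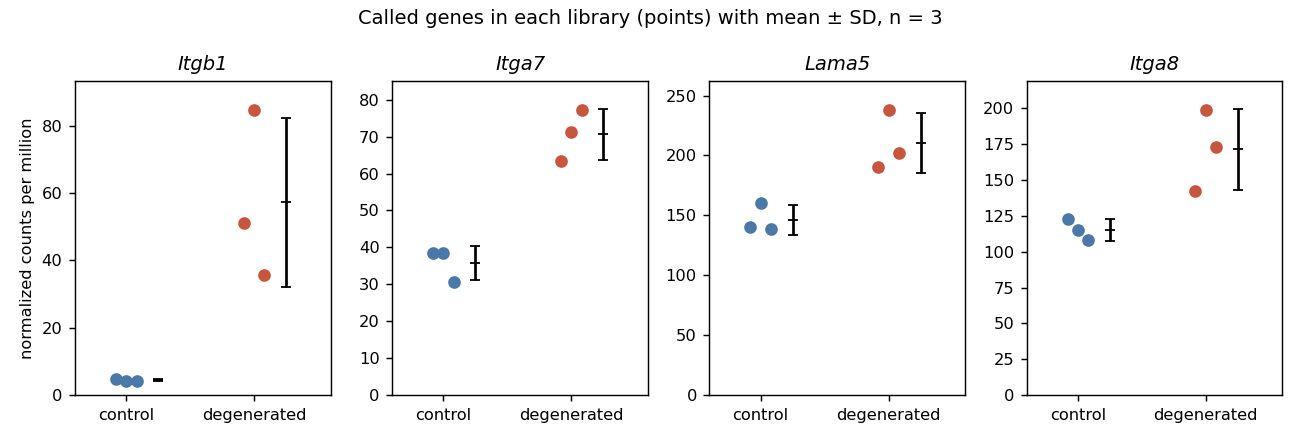
Normalized CPM of the 4 called genes, Itgb1, Itga7, Lama5 and Itga8, in each library (points, control in blue and degenerated in red), with the mean and SD beside them. In each gene the lowest degenerated library lies above the highest control library, by the smallest margin in Itga8 (142.7 against 123.1 CPM).

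Among the collagen-binding alpha chains, none of the 3 tested was called, and they did not share a direction. Itga1, a collagen IV receptor chain, stood at 23.5, 20.7 and 18.7 CPM in control and at 29.1, 34.2 and 27.2 CPM in degenerated libraries (log2 fold change 0.52, standard error 0.20, edgeR adjusted p = 0.481), without overlap of the groups. Itga10 and Itga11, known from cartilage and from fibroblasts, had log2 fold changes of -0.26 (adjusted p = 0.801) and -0.43 (adjusted p = 0.667), and their groups overlapped. Itga10 shares 1739 of its 5186 exon bases with Gm42957 on the same strand. No transcript of Itga2 was listed.

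Several integrins of leukocytes and platelets varied widely between libraries of the same group. Of the 5 leukocyte alpha chains, 4 were tested and none was called, with log2 fold changes from -2.04 to 0.29. Itgal, the alpha chain of LFA-1, which is found across leukocytes, was the gene in which all degenerated libraries lay below all controls, at 8.94, 14.2 and 21.9 against 0.137, 5.0 and 5.84 CPM (log2 fold change -2.04, standard error 1.09, edgeR adjusted p = 0.614). With DESeq2 the log2 fold change of Itgal was -2.05 (unadjusted p = 0.0486, adjusted p = 0.424). With limma-voom it was -3.12 (unadjusted p = 0.0411, adjusted p = 0.473). Its 2 listed of 6 transcripts do not include the principal one. Summed T and NK cell markers (9 of 12 listed) overlapped between the groups, at 17.3 to 56.4 CPM in control against 25.4 to 50.5 CPM in degenerated libraries.

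Itgam, the alpha chain of the complement receptor of granulocytes and macrophages, stood at 32.2, 152.5 and 76.0 CPM in control and at 66.7, 23.9 and 73.6 CPM in degenerated libraries (log2 fold change -0.67, adjusted p = 0.788). Itgb2l, a beta2-like gene, stood at 0, 40.1 and 22.5 CPM in control and at 0.889, 8.10 and 1.42 CPM in degenerated libraries (log2 fold change -2.58, adjusted p = 0.698). The log2 fold change of Itgb2l was -0.45 with limma-voom, -1.69 without control replicate 2 and -4.18 without degenerated replicate 2. The summed markers of neutrophils and bone marrow (7 of 11 listed, among them Mpo at 1.46 to 501 CPM in control) were 248.4, 13509 and 6674 CPM in control and 636.6, 1946 and 4675 CPM in degenerated libraries. Control replicate 2 was highest, and control replicate 3 second, in Itgam, in Itgb2l and in these markers. Of the exon bases of Itgam, 3450 of 5024 are shared with Gm49368 on the same strand, so that its counts are uncertain. Itgad, a further leukocyte chain, was low, at 0.132 to 10.1 CPM in control against 0.493 to 6.47 CPM in degenerated libraries (log2 fold change -1.0, adjusted p = 0.861), and its log2 fold change ranged from -3.03 without degenerated replicate 3 to -0.052 without control replicate 2. Itgax, the alpha chain of dendritic cells and macrophages, stood at 6.35, 8.70 and 20.9 against 16.8, 10.7 and 16.4 CPM (log2 fold change 0.29, adjusted p = 0.882). Summed macrophage markers (9 of 13 listed) were 890.1, 2596 and 2414 CPM in control and 1814, 1650 and 3013 CPM in degenerated libraries. The highest level of Itgax was in control replicate 3 and that of the macrophage markers in degenerated replicate 3.

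Itgb3, the beta chain of platelet and osteoclast integrins, stood at 34.2, 142.1 and 67.3 CPM in control and at 42.0, 19.7 and 138.5 CPM in degenerated libraries (log2 fold change -0.28, adjusted p = 0.933). Summed platelet and megakaryocyte markers (8 of 10 listed, led by Pf4) were 21.5, 229.5 and 109.7 CPM in control and 68.0, 22.1 and 195.7 CPM in degenerated libraries. Control replicate 2 and degenerated replicate 3 were the highest libraries in Itgb3 and in these markers. The platelet alpha chain Itga2b did not share this order. It stood at 1.13, 2.48 and 3.64 CPM in control and at 2.33, 2.47 and 2.29 CPM in degenerated libraries. Summed osteoclast markers (6 of 8 listed) were 286.7 to 476.8 CPM in control against 56.5 to 153.2 CPM in degenerated libraries. The part of blood, marrow and bone cells in the values of these genes was not tested.

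**Figure D4:**
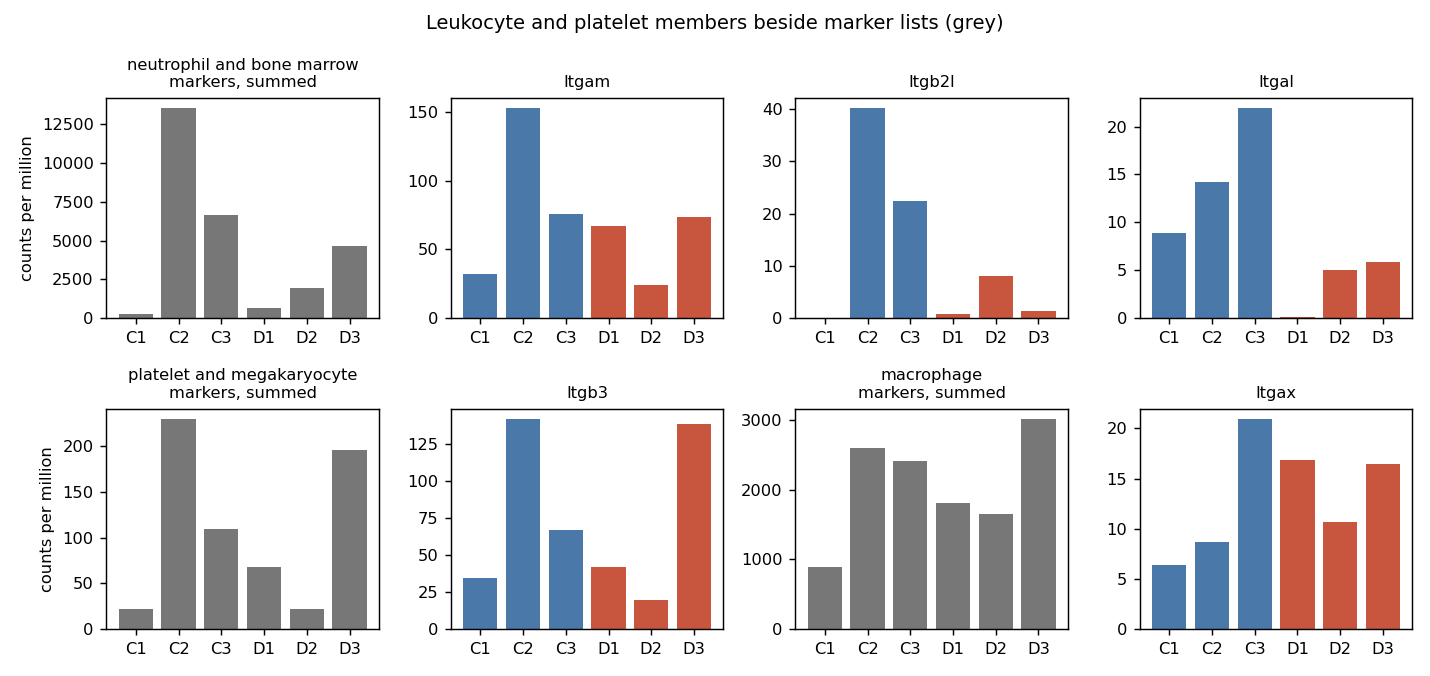
CPM in each control (C1 to C3) and degenerated (D1 to D3) library of Itgam, Itgb2l, Itgal, Itgb3 and Itgax (control in blue, degenerated in red) beside the summed CPM of marker lists (grey). Control replicate 2 is the highest library in the neutrophil and platelet markers, in Itgam, in Itgb2l and in Itgb3.

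Besides Itgb1 and Itgb3, 5 beta chains were tested and none was called. Itgb4, the hemidesmosome chain that pairs with alpha6, stood at 112.3, 62.3 and 64.7 CPM in control and at 111.0, 95.3 and 79.3 CPM in degenerated libraries, with control replicate 1 as the highest (log2 fold change 0.25, standard error 0.27, edgeR adjusted p = 0.806). Itgb5 and Itgb6, partners of the alphav chain, had log2 fold changes of -0.29 (adjusted p = 0.82) and -0.58 (adjusted p = 0.75). The listed transcripts of Itgb4 and of Itgb5 do not include the principal ones. Itgb7, a lymphocyte chain, had -0.73 (adjusted p = 0.619). Itgb2, the common beta chain of the leukocyte integrins, was present almost only as its decay-annotated transcript Itgb2-204, with 0, 243 and 0 counts in control and 0, 212 and 163 counts in degenerated libraries. A transcript at 0 in some libraries and above 100 counts in others of the same group says little of the gene, and its log2 fold change of 0.70 had a standard error of 2.41 (adjusted p = 0.943). Such a pattern, 0 counts in at least 1 library and over 100 in another, was seen in 8 of the 104 listed transcripts. Its share among all transcripts of the series was not computed, so it is not read as a trait of these genes. No transcript of Itgb8 was listed.

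Of the related genes, 3 of 5 were tested and none was called. Itgbl1, which encodes a secreted protein with repeats like those of beta integrins, stood at 79.4, 85.0 and 59.4 CPM in control and at 83.6, 120.4 and 117.5 CPM in degenerated libraries (log2 fold change 0.52, standard error 0.21, edgeR adjusted p = 0.507). Its groups overlapped in 1 library of each. Itgb3bp, a centromere protein first known for binding the beta3 tail, had a log2 fold change of 0.00 (adjusted p = 0.996). Itgb1bp2 was listed but too low to be tested, at 3 to 11 counts in each library, and Itgb1bp1 was not listed.

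The alpha4 and alpha9 chains were also too low in their listed parts, with 0 to 25 counts of Itga4 and 1 to 8 of Itga9 in a library, and Itgae had 0 to 5. The alpha3 laminin chain, Lama3, had 0 counts in all 6 libraries in the 1 of its 2 transcripts that was listed. These are values of the listed transcripts, which do not include the principal ones.

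Among the laminin alpha chains, all 4 tested had positive log2 fold changes (49.7% of all tested genes), and 1 was called, higher (2.01% of all tested genes). Lama5 encodes the alpha5 chain, found in basement membranes of epithelia and mature vessels. The gene (ENSMUSG00000015647) lies at chr2:180176373-180225859 on the minus strand, and its principal transcript was the one listed. It stood at 140.1, 160.5 and 138.3 CPM in control and at 190.4, 238.3 and 201.7 CPM in degenerated libraries, with no overlap. The mean rose from 146.3 ± 12.3 to 210.1 ± 25.1 CPM, at a log2 fold change of 0.52 (standard error 0.13, edgeR adjusted p = 0.342). The call was lost without control replicate 1, control replicate 3, degenerated replicate 2 or degenerated replicate 3, at log2 fold changes from 0.41 to 0.59 over all libraries left out. In the fit across transcripts, its log2 fold change was 0.48 (adjusted p = 0.564).

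Lama2, the alpha2 chain of the laminin around Schwann cells and muscle fibres, stood at 286.9, 194.0 and 157.6 CPM in control and at 374.0, 258.9 and 275.1 CPM in degenerated libraries. The groups overlapped, since control replicate 1 lay above 2 of the degenerated libraries, and the log2 fold change was 0.51 (standard error 0.26, adjusted p = 0.601). The principal transcript Lama2-201 held 80.1 ± 2.18% of the gene's counts in control and 88.1 ± 1.79% in degenerated libraries. The shorter coding transcript Lama2-208, from the end of the gene, held 16.05 ± 1.52% and 8.50 ± 0.813%. The shares did not overlap between the groups (exact permutation p = 0.1 for each, the smallest possible), while neither transcript was called (log2 fold change 0.60, adjusted p = 0.707, and -0.43, adjusted p = 0.803). Lama4, the vessel-associated chain, was at 0.319 to 1.55 CPM in its listed part, without the principal transcript (log2 fold change 0.44, adjusted p = 0.853). Lama1, the embryonic chain, had 38.7 to 55.9 CPM in control against 33.6 to 57.3 CPM in degenerated libraries (log2 fold change 0.04, adjusted p = 0.973).

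The beta chains of laminin were not called, with 3 of 3 positive (49.7% of all tested genes). Lamb1, the beta chain of most Schwann cell and embryonic laminins, stood at 235.6, 154.9 and 183.5 CPM in control and at 215.5, 268.1 and 248.2 CPM in degenerated libraries (log2 fold change 0.35, standard error 0.18, edgeR adjusted p = 0.599). Control replicate 1 lay above degenerated replicate 1. Lamb3, a chain of the epithelial laminin that anchors hemidesmosomes, stood at 13.6, 16.06 and 12.5 CPM in control and at 16.07, 20.8 and 19.9 CPM in degenerated libraries, so that the groups were barely apart (log2 fold change 0.43, adjusted p = 0.61). Lamb2, the beta chain of synapses and mature basement membranes, was at 1.66 to 4.58 CPM in its listed part, without the principal transcript (log2 fold change 0.61, adjusted p = 0.661).

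Lamc1, the gamma chain of most laminins, stood at 2.45, 12.5 and 102.9 CPM in control and at 37.6, 1.90 and 1.82 CPM in degenerated libraries. The principal transcript of Lamc1 was not listed. Its main listed transcript, Lamc1-204, is a short one of 3 exons that held 1601 counts in control replicate 3 and 17 to 525 in the degenerated libraries. The log2 fold change of -1.51 (SE 1.69, adjusted p = 0.815) became 0.85 without control replicate 3.

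Lamc3 encodes the gamma3 chain, known in nerves, the retina and the testis. The gene stood at 57.4, 73.2 and 39.4 CPM in control and at 69.4, 67.0 and 70.6 CPM in degenerated libraries, with overlap (log2 fold change 0.28, adjusted p = 0.752). Its principal transcript Lamc3-201 held 615 to 1032 counts in control and 883 to 1000 in degenerated libraries (log2 fold change 0.22, adjusted p = 0.886). A rare coding transcript, Lamc3-203, was called, with 2, 2 and 2 counts in control and 13, 15 and 11 counts in degenerated libraries (log2 fold change 2.69, standard error 0.48, edgeR adjusted p = 0.344). It made up 0.249% of the gene's counts in control and 1.36% in degenerated libraries (exact permutation p = 0.1), and the call was lost without control replicate 3, or without any one of the degenerated libraries, at log2 fold changes from 2.61 to 2.74. The third transcript, Lamc3-202, held 0 or 1 counts. Of the 4664 bases of Lamc3-203, 4578 also lie in Lamc3-201, and 26 of its 27 junctions are shared. Its few counts therefore depend on how shared reads were assigned, and reads over its own bases were not examined. Lamc3-203 starts exon 20 with 33 extra bases, at chr2:31925948-31925980 on the plus strand. They are shown in capitals, with the same junction of Lamc3-201 in lower case below.
Lamc3-203: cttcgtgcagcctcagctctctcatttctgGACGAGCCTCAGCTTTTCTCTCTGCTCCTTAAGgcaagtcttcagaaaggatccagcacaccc
Lamc3-201: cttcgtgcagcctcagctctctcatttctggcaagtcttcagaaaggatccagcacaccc

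**Figure D5:**
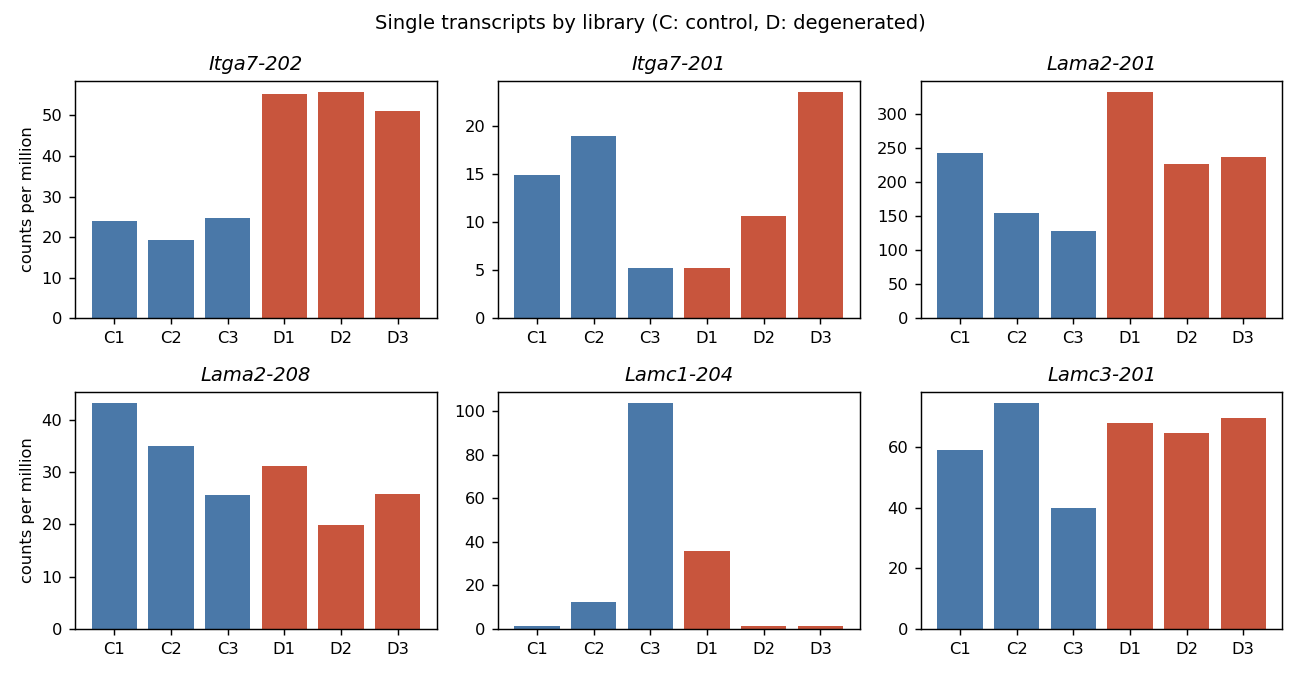
CPM of single transcripts of Itga7, Lama2, Lamc1 and Lamc3 in each control (C1 to C3, blue) and degenerated (D1 to D3, red) library. Itga7-202 is higher in all degenerated libraries, Lamc1-204 is highest in control replicate 3, and Lamc3-201 overlaps between the groups.

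Across the 55 tested transcripts of the integrin and laminin genes, Itgb1-202, Itga7-202, Itga7-205 and Lamc3-203 were called higher and 0 were called lower. Among all 26065 transcripts tested, 1.79% were called, 1.14% higher and 0.652% lower. None of the 55 had an adjusted edgeR p under 0.05 (0.0153% of all tested transcripts), and 8 had an unadjusted p under 0.05 (7.55% of all). Groups were apart in 13 of the 55 with degenerated libraries higher (9.13% of all tested transcripts) and in 1 with them lower (7.24% of all tested transcripts). Transcripts that meet the criteria thus included the main counted form of Itgb1 and of Itga7, but for Lama5 and Itga8 the single transcripts missed them.

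For 24 of the 42 genes a principal coding transcript was among those listed, and only for these was the level per length compared between genes, as TPM, a level scaled by transcript length and library size that was computed from the listed transcripts. Of these 24 genes, 23 were tested, 15 with a positive log2 fold change (49.7% of all tested genes). The 24 included 3 of the 4 called genes, all but Itgb1 (2.01% of all tested genes were called higher). In control libraries, Lamb1 (61.3 ± 16.9 TPM), Lama2 (54.4 ± 19.3 TPM), Itga6 (42.7 ± 16.02 TPM), Itgam (37.8 ± 24.0 TPM) and Itga8 (36.4 ± 4.52 TPM) were the highest, and neighbours in this order differed by less than the larger of their SDs. Lama5 (23.4 ± 1.31 TPM) and Itga7 (16.3 ± 2.53 TPM) were lower than these. In degenerated libraries the level of Lamb1 was 84.1 ± 12.5 TPM, of Lama2 73.7 ± 12.04 TPM, of Itga6 69.2 ± 8.96 TPM and of Itga8 58.6 ± 11.8 TPM, so these 4 genes kept their order. Itgam was at 24.9 ± 9.81 TPM. Its place is uncertain in both groups, since 3450 of its 5024 exon bases are shared with Gm49368 on the same strand. Lama5 stood at 36.5 ± 5.77 TPM and Itga7 at 34.7 ± 4.17 TPM.

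Other genes of the laminin and integrin pathway were read from the same fit in lists of partners. Of the laminin receptors that are not integrins, 24 of 28 were tested and 2 were called, both higher (2.01% of all tested genes), with a median log2 fold change of 0.10. Bcam, the Lutheran glycoprotein, which binds the laminin alpha5 chain, stood at 414.0, 349.5 and 339.5 CPM in control and at 876.2, 757.1 and 1094 CPM in degenerated libraries. The groups lay far apart, and the mean rose from 367.6 ± 40.4 to 909.0 ± 170.7 CPM, at a log2 fold change of 1.31 (standard error 0.17, edgeR adjusted p = 0.138). Sdc4, a heparan sulfate proteoglycan of focal adhesions, stood at 378.4, 327.5 and 407.5 CPM in control and at 593.9, 590.2 and 633.4 CPM in degenerated libraries (log2 fold change 0.71, standard error 0.12, edgeR adjusted p = 0.216). Both calls were kept with each library left out in turn. Dag1, the dystroglycan precursor, which binds laminin alpha2 on Schwann cells, had a log2 fold change of 0.63 that was not called (adjusted p = 0.483).

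Of the basement membrane and hemidesmosome components, 24 of 31 were tested, 19 with a positive log2 fold change (49.7% of all tested genes), and 1 was called in each direction (2.01% of all tested genes higher and 0.715% lower). Plec, the plectin gene, whose product links alpha6 beta4 integrin to keratin filaments, stood at 15.4, 6.01 and 1.28 CPM in control and at 87.7, 92.6 and 112.6 CPM in degenerated libraries, in 8 of its 22 transcripts (log2 fold change 3.69, standard error 0.85, edgeR adjusted p = 0.327). Ntng2, a membrane-bound netrin-like protein of neurons, fell, from 63.1, 61.8 and 52.5 CPM to 32.1, 43.4 and 34.0 CPM (log2 fold change -0.70, standard error 0.18, edgeR adjusted p = 0.359). Ntng2 is a neuronal gene rather than a basement membrane component. The perlecan gene Hspg2 (log2 fold change 1.27, adjusted p = 0.398) was not called.

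Among the 26 tested of 35 ligands and counter-receptors, 2 were called, both higher (2.01% of all tested genes), and as many had a negative as a positive log2 fold change (13 each). Cdh1, E-cadherin, an epithelial adhesion protein that leukocyte integrins bind, stood at 336.9, 320.8 and 305.1 CPM in control and at 402.8, 487.7 and 454.8 CPM in degenerated libraries (log2 fold change 0.48, standard error 0.11, edgeR adjusted p = 0.320). Cdh1 is also among the epithelial markers whose sum was higher in the degenerated libraries. Ccn2, a matricellular protein that integrins bind, stood at 352.2, 365.6 and 510.3 against 692.9, 700.9 and 608.8 CPM (log2 fold change 0.71, standard error 0.17, edgeR adjusted p = 0.342).

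Of the adhesion machinery at the inner face of integrins, 29 of 36 genes were tested and 1 was called, higher (2.01% of all tested genes). Bcar1, the docking protein p130Cas, had 1.06, 0.990 and 1.28 CPM in control and 3.15, 4.01 and 2.21 CPM in degenerated libraries in the 1 of its 3 transcripts that was listed (log2 fold change 1.49, standard error 0.37, edgeR adjusted p = 0.342). The other genes of this list, such as Zyx with a log2 fold change of -0.46 (adjusted p = 0.567) and Tns1 with 0.49 (adjusted p = 0.568), did not meet the criteria. The calls of Plec, Ntng2, Cdh1, Ccn2 and Bcar1 were each lost with at least 1 library left out.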

How the data were processed

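RNA of the modiolus was sequenced in 3 control and 3 degenerated libraries. Per the paper, the authors aligned the reads with Hisat2 and evaluated expression with StringTie, while the submitters' processing notes name Bowtie 0.12.2 and the builds mm8 and mm10, with no role. The sources used here do not give the counting step, its use of strand or the annotation. The authors deposited raw counts per Ensembl transcript, not normalized, for 65535 transcripts. Of these, 65272 matched GENCODE M21 (GRCm38) by identifier, 46.0% of its transcripts, and the other 263, with 0.125% of counts, were left out. Gene counts are sums over listed transcripts, so that a gene's value describes its listed part only. The comparison had been designed for counts per gene.

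Genes and transcripts were tested in R 4.3.3 with edgeR 4.0.16 (filterByExpr, TMM with gene factors from 0.983 to 1.02, robust quasi-likelihood F test, no covariate), with Benjamini-Hochberg adjustment over all genes or transcripts tested. The standard error is the size of the log2 fold change over the square root of F. CPM are scaled by the TMM factors of their own fit. The common biological coefficient of variation was 0.488 for genes and 0.694 for transcripts. Replicates had Pearson correlations of 0.913 to 0.948 on log2(CPM + 1). Alternatives were DESeq2 1.42.0, limma-voom (limma 3.58.1), RLE normalization, no filter, a mean of at least 10 counts, the replicate number as a block, coding transcripts only, and each library left out. Shares of transcripts were compared with exact two-sided permutation tests. The steps were tested on simulated data.

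The genes and lists were chosen with earlier results of these data known. Described in full were genes called by any tool, the 10 with the smallest p and Itgb1. Values per library of other genes, such as Lama2, Lamc1 and the leukocyte genes, were chosen after their values were seen. The planned rule named the partner genes called, or else the 2 of a list with the smallest p. Dag1 and Hspg2, chosen after their values were seen, and Zyx and Tns1 were named outside this rule. Genes without a listed transcript are not analysed here, and results of some genes are not reported here.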

Additional observations from a re-analysis of the deposited data

How the results depend on the processing

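Relative to the 284 genes called higher and 101 lower, DESeq2 called 479 and 306, the replicate block 160 and 58, and the fits without a library 144 to 339 and 76 to 158 (those called higher were 144 if degenerated replicate 2 was left out, 179 for degenerated replicate 3, 171 for control replicate 3 and 185 for control replicate 2, and those called lower 158 for control replicate 1). Transcripts called were 296 higher and 170 lower, 657 and 555 with DESeq2, 138 and 83 with the block, and 211 to 412 and 152 to 230 without a library. Of the integrin and laminin genes, 4 were called higher and 0 lower, 2 to 4 and 0 without a library, 3 with limma-voom, with RLE normalization or with the block, and 2 with coding transcripts only (Itga7 and Lama5), where Itgb1, left with Itgb1-204, was too low to be tested. Itgb1 and Itga7 kept the call with each library left out. Itga8 lost it with limma-voom, RLE normalization, the block and coding transcripts only. The 6 partner genes called higher and 1 lower became 9 and 2 with DESeq2, 3 and 0 with the block, and 2 to 7 and 0 to 1 without a library (3 higher without control replicate 2 or degenerated replicate 3, 2 without degenerated replicate 2, and 0 lower without any one of the control libraries or degenerated replicate 1). The gain in the share of Itgb1-202, which follows from the rise of its own counts, stayed between 2.71 and 2.98 percentage points.

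Directions turned where the change was small or rested on 1 library, and the cause was not tested. The log2 fold change of Itga2b was 0.12 with limma-voom and 0.11 with the block, that of Itgb3bp -0.011 with DESeq2, -0.012 with RLE normalization, -0.014 with coding transcripts only and -0.015 without the filter, and that of Itga7-201 -0.0083 with DESeq2, -0.0081 with RLE normalization, -0.013 without the filter, -0.063 with limma-voom and -0.15 with the block. Without a library, the values ranged from -0.38 to 0.38 for Itga2b, -1.07 to 0.014 for Itgam, -0.020 to 0.95 for Itgax, -1.40 to 0.39 for Itgb3, -0.20 to 0.15 for Itgb3bp, -0.49 to 0.060 for Itgb5, -0.17 to 0.22 for Lama1, -0.019 to 0.95 for Lama4, -4.39 to 0.85 for Lamc1 and -0.72 to 0.40 for Itga7-201.

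A pairing of the samples by replicate number was not shown. Deviations of same-numbered libraries correlated at 0.16, -0.09 and 0.07. Control replicate 1 correlated best with degenerated replicate 1, but control replicate 2 with degenerated replicate 3 (0.24). With 3 libraries in each group these correlations depend on each other, so they cannot exclude a pairing. The totals cover listed transcripts only, and the sources used here give no full depth. Genes of a few CPM, such as Itgav, Itga2b and Lama4, and genes at a few counts could not be compared with precision at this depth.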
